A study of Homo sapiens with 2 samples.

Results

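The WNT ligands, the Frizzled receptors (FZD) and the secreted WNT inhibitors, together with the co-receptors, feedback regulators and TCF/LEF transcription factors of the same pathway, were examined in BEAS-2B, a cell line derived from human bronchial epithelium and immortalised by viral genes. The members were all protein-coding genes with a WNT or FZD symbol followed by a number, DKK1 to DKK4, the SFRP genes with a symbol from SFRP1 to SFRP5, and 11 named genes (LRP5, LRP6, AXIN2, LEF1, TCF7, TCF7L1, TCF7L2, RNF43, ZNRF3, NKD1 and NKD2). This rule gave 48 of the 58051 annotated genes, all 48 with a row in the gene counts (the gene also known as SFRP3 is listed as FRZB and is not one of them). RNA sequencing was done on 1 library of BEAS-2B cells made to overexpress the cation channel TRPV3 (TRPV3-OE, passage 4 to 8) and 1 library of the parental cells (genotype WT, passage 20 to 30). All cells were kept in LHC-9 medium on a coat of collagen and fibronectin, seeded at the same density and taken when confluent. How the TRPV3 line was made, and whether it is 1 clone, is not given in the sources used here, and passage and TRPV3 cannot be told apart.

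WNT proteins are secreted, lipid-modified signals. In the canonical branch a WNT binds a Frizzled receptor together with the co-receptor LRP5 or LRP6, which stops a cytoplasmic complex of AXIN, APC and GSK3 from marking beta-catenin for destruction, so that beta-catenin enters the nucleus and joins TCF/LEF factors on target genes. Other branches use Frizzled receptors without beta-catenin, among them the planar polarity system that orients epithelial cells. In the lung, WNT signals take part in budding of the airways and in the upkeep and repair of epithelium.

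With 1 library per group there is no replicate and no test between conditions, and no p-value is given. Levels are CPM (counts per 1000000 counts of the library, after TMM scaling between libraries), with exact 95% Poisson intervals. Differences are log2 ratios of TRPV3-OE over parental (a value of 1 is 2-fold) with exact binomial 95% intervals. Both intervals cover counting error only, and sequencing reads copied by PCR are not independent molecules. A gene is called measured from 100 counts summed over both libraries, and it is counted as higher or lower in TRPV3-OE where the ratio reached at least 2-fold and no part of the interval crossed a ratio of 1.

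Total gene counts were 17477953 in the TRPV3-OE library and 17450658 in the parental library. TRPV3 itself had 54077 counts in TRPV3-OE and 26 in parental cells. Epithelial markers were present in both libraries. All 10 were measured and summed to 3629 CPM in TRPV3-OE and 2678 CPM in parental cells, led by KRT19 and KRT18. The airway basal cell list (13 genes, 12 measured) summed to 4315 CPM in TRPV3-OE and 7754 CPM in parental cells. Of the 12 measured, 6 were lower (50%, beside 5.35% of all measured genes) and 0 higher (beside 5.31%). Markers of mesenchyme and fibroblasts (14 genes, 7 measured) summed to 194 CPM in TRPV3-OE and 2450 CPM in parental cells. Of the 7 measured, 5 were lower (71.4%, beside 5.35% of all measured genes) and 0 higher. The 5 lower ones were VIM, with 24 counts in TRPV3-OE and 13736 in parental cells, FN1 (2538 and 25699), SNAI2 (411 and 1030), CDH2 (22 and 773) and ZEB1 (1 and 116). VIM, CDH2 and ZEB1 reached the minimum through the parental library alone. COL1A1 (285 and 410) and TWIST1 (172 and 194) were short of 2-fold, and COL3A1 and LUM were at 0 in both libraries. The 7 endothelial markers summed to 3.26 CPM in TRPV3-OE and 16.99 CPM in parental cells, mostly from CDH5 (35 and 268 counts) and PECAM1 (23 and 14 counts), with KDR, TEK and CLDN5 at 0 in both. The immune cell markers summed to 26.0 CPM in TRPV3-OE and 4.32 CPM in parental cells, nearly all from CD14, with PTPRC, CD3E, LYZ and CD163 at 0 in both. The part of these marker differences in the WNT values was not tested.

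Of the 48 members, 24 were measured, 12 had a count but fewer than 100 in sum, and 12 had no count. Among the 24 measured members 2 were at least 2-fold higher in TRPV3-OE (8.33%, beside 5.31% of all 11466 measured genes) and 8 were at least 2-fold lower (33.3%, beside 5.35% of all measured genes). The higher ones were the ligand genes WNT7B and WNT10A. The lower ones were the ligand genes WNT7A and WNT9A, the receptor genes FZD1 and FZD8, the inhibitor genes DKK3 and SFRP1, the feedback gene RNF43 and the transcription factor gene TCF7L1. WNT7A, WNT9A, FZD7, FZD8 and TCF7L1 reached the minimum through the parental library alone, with fewer than 100 counts in TRPV3-OE. Such genes were bound to have the lower level in TRPV3-OE, so the counts of higher and lower members are a description only. The median log2 ratio of the 24 was −0.21, against −0.03 over all measured genes. It was 0.19 over the 14 members with at least 500 counts. In bulk RNA, fewer cells expressing a gene and less RNA per cell cannot be told apart.

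The counts depended on the limits. With a minimum of 20 counts, 4 of 27 members were higher and 8 lower, where 7.85% and 6.76% of all genes with that minimum were. A minimum of 1 count gave 4 higher and 9 lower of 36 members, beside 5.89% and 4.90% of all genes. A minimum of 500 gave 1 and 4 of 14 members, beside 2.77% and 3.65%. At 1.5-fold 4 were higher and 10 lower, where 12.7% and 14.2% of all measured genes were, and at 4-fold 0 were higher and 3 lower (WNT7A, TCF7L1 and FZD8), where 1.32% and 1.39% were.

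**Figure D1:**
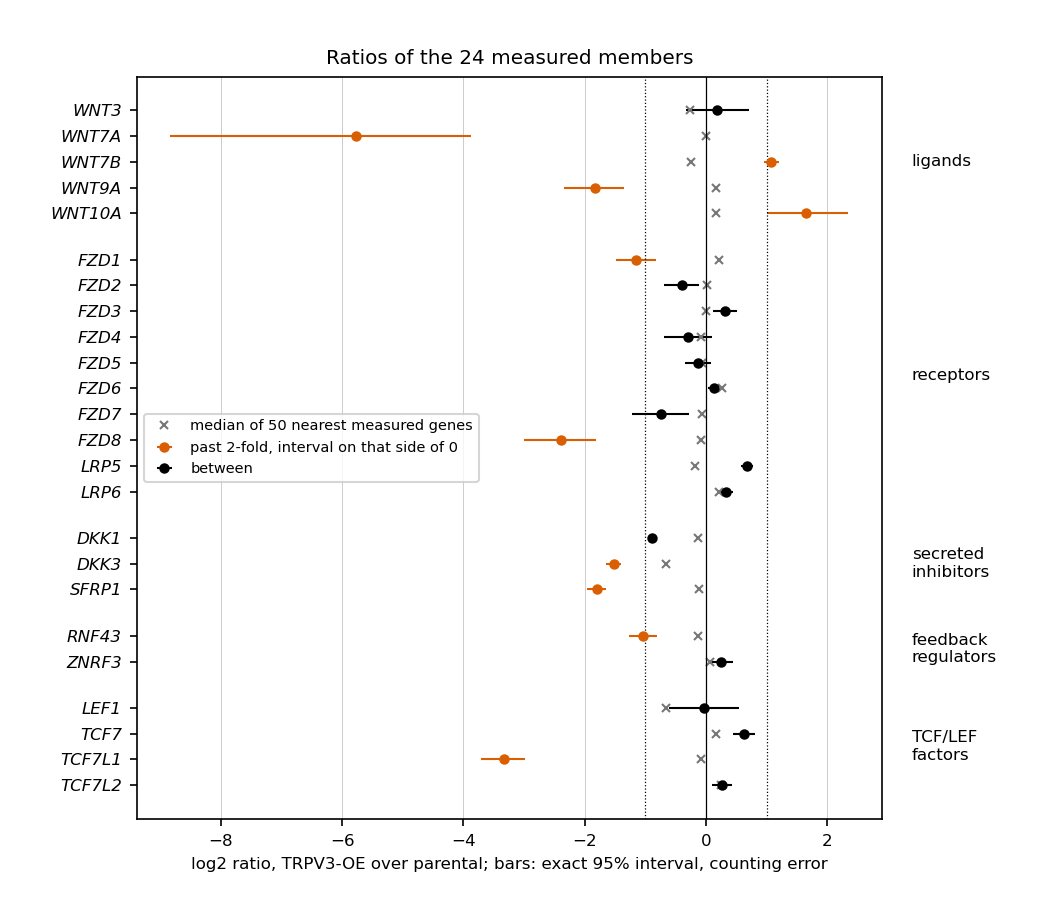
Log2 ratio of TRPV3-OE over parental (x axis) for each of the 24 measured members, grouped by role, with exact 95% intervals for counting error. Crosses mark the median over the 50 measured genes that lie closest on the chromosome, and dotted lines mark 2-fold. WNT7A at −5.77 and TCF7L1 at −3.34 lie farthest to the left, WNT10A at 1.65 farthest to the right.

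Among the 19 ligand genes WNT7B dominated in both libraries. WNT7B (ENSG00000188064, chromosome 22, 45920362 to 45977129, minus strand, GRCh38.p7), a ligand made by lung epithelium during development, had 1813 counts in TRPV3-OE and 824 in parental cells. Its level was 102 CPM (97.2 to 107) in TRPV3-OE and 48.1 CPM (44.9 to 51.5) in parental cells, a log2 ratio of 1.08 (0.96 to 1.20). The intervals of the levels were far apart. WNT10A (ENSG00000135925, chromosome 2, 218880363 to 218899581, plus strand), a ligand known from teeth, hair and other skin appendages, had 85 counts in TRPV3-OE and 26 in parental cells, that is 4.77 CPM and 1.52 CPM. This was 3.14-fold higher, with a log2 ratio of 1.65 (1.004 to 2.35).

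WNT7A, the closest relative of WNT7B, differed in the opposite direction. WNT7A (ENSG00000154764, chromosome 3, 13816258 to 13880121, minus strand) had 2 counts in TRPV3-OE and 105 in parental cells, with levels of 0.112 CPM (0.0136 to 0.406) and 6.13 CPM (5.01 to 7.42). Its log2 ratio was −5.77, with a wide interval of −8.83 to −3.88 because 2 counts carry little precision, and it was −4.01 with a prior count of 5. WNT9A (ENSG00000143816, chromosome 1, 227918656 to 227947898, minus strand), a ligand with a role in joint formation, had 46 counts in TRPV3-OE and 157 in parental cells. It was 3.55-fold lower, with a log2 ratio of −1.83 (−2.33 to −1.34). WNT3, the remaining measured ligand and a canonical one, had 71 and 60 counts, and its interval of −0.33 to 0.71 spanned no difference.

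The other ligand genes were scarce or unseen. WNT3A, a canonical ligand, had 34 counts in TRPV3-OE and 16 in parental cells (log2 ratio 1.03, 0.13 to 1.99), too few for the minimum. Counts in TRPV3-OE and in parental cells were 12 and 9 for WNT2B, 7 and 3 for WNT4, and 4 and 11 for WNT10B, with intervals that spanned no difference. WNT8B had 5 counts in TRPV3-OE and 1 in parental cells, WNT5B had 1 and 4, and WNT5A, the usual ligand of the non-canonical branch, had 0 and 1. WNT1, WNT2, WNT6, WNT8A, WNT9B, WNT11 and WNT16 had no count, which allows levels of up to 0.168 CPM in TRPV3-OE and 0.175 CPM in parental cells by a floor of 3 counts, which is tighter than the upper end of the Poisson interval.

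**Figure D2:**
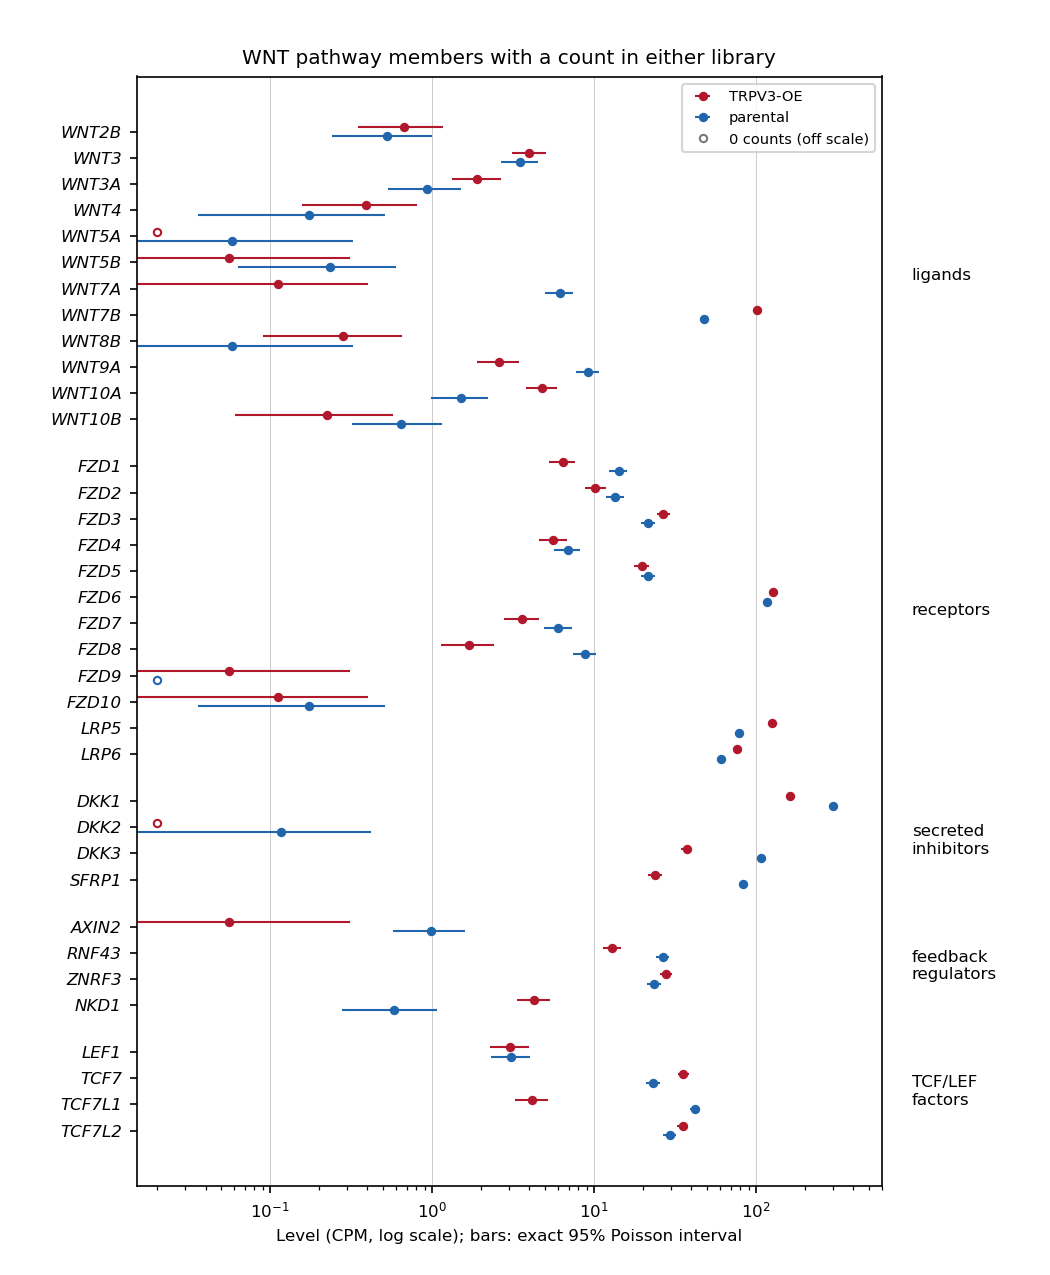
Level in CPM (log scale) of the 36 members with a count in either library, TRPV3-OE in red above parental in blue, with exact 95% Poisson intervals and open circles for 0 counts. DKK1 and FZD6 have the highest levels in both libraries, and the pairs of WNT7A, TCF7L1 and FZD8 are the widest apart among measured members.

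Comparison of levels between genes needs their length, so CPM was divided by the kilobases of merged exons. On this scale WNT7B stood at 20.2 CPM per kilobase in TRPV3-OE and 9.52 in parental cells. In TRPV3-OE the next ligand levels were 1.40 for WNT10A, 0.920 for WNT3 and 0.651 for WNT3A, with WNT9A at 0.651 also. In parental cells they were 2.31 for WNT9A, 1.34 for WNT7A and 0.808 for WNT3. WNT7B thus made up 83.4% of the summed length-scaled ligand level in TRPV3-OE and 62.8% in parental cells. By counts, its share of all ligand counts was 87.2% in TRPV3-OE (Wilson 95% interval 85.7 to 88.5%) and 67.7% in parental cells (65.0 to 70.3%). All 19 ligand genes together had 2080 counts in TRPV3-OE and 1217 in parental cells, and the 18 without WNT7B had 267 and 393. The summed ligand level was therefore higher in TRPV3-OE with WNT7B (log2 ratio 0.72, 0.61 to 0.82) and lower without it (−0.61, −0.84 to −0.39).

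**Figure D3:**
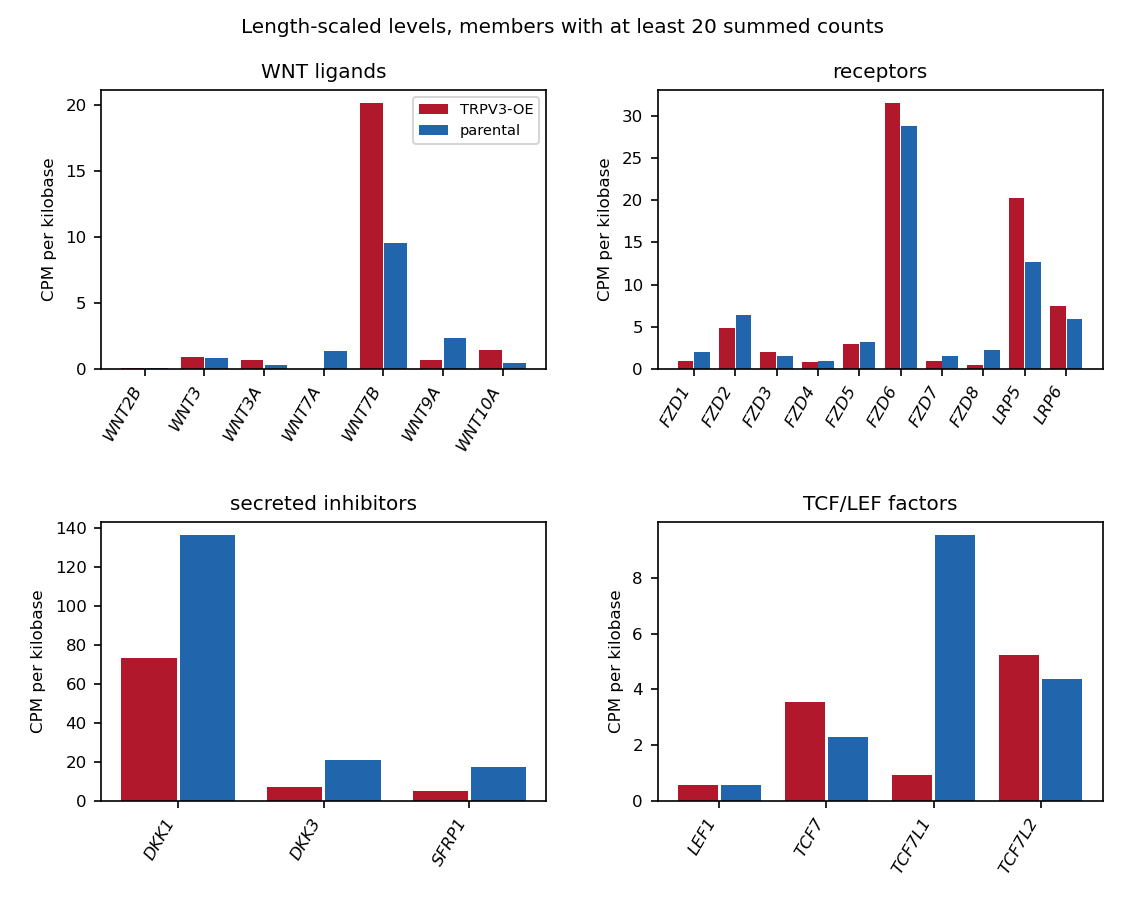
Length-scaled levels (CPM per kilobase of merged exons, linear axes from 0) of members with at least 20 summed counts in 4 roles, with TRPV3-OE in red left of parental in blue; there are no error bars because each bar is 1 library. WNT7B, FZD6 and DKK1 have the tallest bars of their panels, and the TCF7L1 pair differs most in height among the TCF/LEF factors, at 0.941 in TRPV3-OE and 9.52 in parental cells.

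All 12 receptor and co-receptor genes had a count and 10 were measured. Of these, 0 were higher (beside 5.31% of all measured genes) and 2 lower (20%, beside 5.35%). FZD8 (ENSG00000177283, chromosome 10, 35638249 to 35642278, minus strand) had 30 counts in TRPV3-OE and 151 in parental cells, at 1.68 CPM and 8.82 CPM. It was 5.23-fold lower, with a log2 ratio of −2.39 (−3.00 to −1.82). FZD1 (ENSG00000157240, chromosome 7, 91264364 to 91271326, plus strand) had 114 counts in TRPV3-OE and 243 in parental cells, a log2 ratio of −1.15 (−1.48 to −0.82). Both encode membrane-spanning receptors that bind WNT through a cysteine-rich domain, as all Frizzled proteins do.

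The most abundant Frizzled gene differed little. FZD6, known from planar polarity and hair patterning, had 2282 counts in TRPV3-OE and 2006 in parental cells (log2 ratio 0.13, 0.04 to 0.22, and −0.13 relative to the median of the 50 measured genes closest to it on the chromosome). It made up 71.1% of the summed length-scaled Frizzled level in TRPV3-OE and 61.6% in parental cells. FZD3, also a polarity receptor, had 477 and 369 counts (0.31, 0.12 to 0.51). FZD5, with 351 and 369 counts, and FZD4, the receptor for Norrin with 100 and 118, had intervals that spanned no difference. FZD2, with 182 and 231 counts (−0.40, −0.69 to −0.11), and FZD7, with 64 and 103 (−0.74, −1.22 to −0.28), were below parental beyond counting error and short of 2-fold. FZD9 had 1 count in TRPV3-OE and 0 in parental cells, and FZD10 had 2 and 3. The 10 Frizzled genes summed to 3603 counts in TRPV3-OE and 3593 in parental cells (log2 ratio −0.05, −0.12 to 0.01).

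Both co-receptor genes had more counts in TRPV3-OE. LRP5 had 2226 counts in TRPV3-OE and 1344 in parental cells, or 125 CPM and 78.5 CPM (log2 ratio 0.67, 0.57 to 0.77). LRP6 had 1366 and 1044 counts (0.33, 0.21 to 0.45). Neither reached 2-fold. For the 50 measured genes closest to LRP5 on chromosome 11 the median was −0.17, and relative to them LRP5 stood at 0.85. Relative to its own 50 closest genes LRP6 stood at 0.12, below its interval.

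All 3 measured secreted inhibitors had lower levels in TRPV3-OE, 2 of them past 2-fold (66.7%, beside 5.35% of all measured genes). Of all 11466 measured genes, 6072 had a lower level in TRPV3-OE. DKK1 (ENSG00000107984, chromosome 10, 52314296 to 52318042, plus strand), which blocks LRP5 and LRP6, was the most abundant member by CPM in both libraries. It had 2876 counts in TRPV3-OE and 5148 in parental cells, with levels of 162 CPM (156 to 168) and 301 CPM (292 to 309). Its log2 ratio of −0.90 (−0.96 to −0.83) was 1.86-fold lower, short of 2-fold. SFRP1 (ENSG00000104332, chromosome 8, 41261958 to 41309497, minus strand), which binds WNT proteins outside the cell, had 426 counts in TRPV3-OE and 1425 in parental cells, a 3.48-fold lower level (log2 ratio −1.80, −1.96 to −1.64).

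DKK3 (ENSG00000050165, chromosome 11, 11963106 to 12009769, minus strand), a divergent family member whose effect on WNT signalling is less settled than that of DKK1, had 664 counts in TRPV3-OE and 1835 in parental cells. It was 2.87-fold lower (log2 ratio −1.52, −1.65 to −1.39). The genes around it on chromosome 11 were low as well (median −0.67 over the closest 50), and relative to them DKK3 stood at −0.86, below 2-fold. DKK2 had 0 counts in TRPV3-OE and 2 in parental cells, and DKK4, SFRP2, SFRP4 and SFRP5 had none. Over the 8 inhibitor genes counts summed to 3966 in TRPV3-OE and 8410 in parental cells (log2 ratio −1.14, −1.20 to −1.09), and by length-scaled level DKK1 made up 85.5% of the sum in TRPV3-OE and 77.9% in parental cells.

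The promoter of DKK1 is shown because, of DKK1 and the members past 2-fold that have a RefSeq window, DKK1 alone holds a match to the TCF/LEF core. The promoters of WNT7A and TCF7L1 are set beside it because these genes had the largest differences among the measured members. Sequences are RefSeq promoter windows on GRCh38.p14, 250 bases before to 50 bases after the start site, written 5′ to 3′ on the strand of the gene, and capitals mark matches, on either strand, to CTTTG followed by AA, AT, TA or TT.
DKK1 (chr10:52314031-52314330, plus strand): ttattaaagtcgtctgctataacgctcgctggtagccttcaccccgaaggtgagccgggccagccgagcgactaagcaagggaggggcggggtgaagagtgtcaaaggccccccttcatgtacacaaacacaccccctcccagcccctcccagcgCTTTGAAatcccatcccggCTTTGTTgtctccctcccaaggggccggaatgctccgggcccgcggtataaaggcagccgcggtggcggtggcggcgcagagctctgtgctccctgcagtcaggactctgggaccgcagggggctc
TCF7L1 (chr2:85133142-85133441, plus strand): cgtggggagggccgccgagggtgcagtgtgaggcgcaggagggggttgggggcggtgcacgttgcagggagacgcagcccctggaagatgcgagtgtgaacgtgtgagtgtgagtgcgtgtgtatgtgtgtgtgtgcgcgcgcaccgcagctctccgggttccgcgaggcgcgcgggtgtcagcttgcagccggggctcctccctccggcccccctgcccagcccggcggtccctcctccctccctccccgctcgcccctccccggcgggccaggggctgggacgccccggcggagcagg
WNT7A (chr3:13880022-13880321, minus strand): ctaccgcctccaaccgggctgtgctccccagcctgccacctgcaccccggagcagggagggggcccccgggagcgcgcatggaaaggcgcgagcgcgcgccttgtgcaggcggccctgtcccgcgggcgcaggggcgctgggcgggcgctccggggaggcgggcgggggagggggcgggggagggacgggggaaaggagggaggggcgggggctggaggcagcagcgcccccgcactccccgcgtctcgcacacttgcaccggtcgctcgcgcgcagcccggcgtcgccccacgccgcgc
The DKK1 window held 2 matches on the strand of the gene, one that ends in AA and another that ends in TT, of which the first begins 95 bases before the start site. The other windows shown held none. Members past 2-fold without a RefSeq window, and so not searched, were WNT7B, DKK3 and SFRP1. RefSeq windows were found for 32 of the 48 members, 39 windows in all, and 4 of the 39 held a match (10.3%), against 13.8% of all 35116 promoter windows. The other members with a match were TCF7, TCF7L2 and WNT3, each with the form that ends in TT. A match describes letters and not a binding site. The WNT7A window was 80.3% G or C with 40 CG pairs, the TCF7L1 window 74.3% with 31 and the DKK1 window 63.7% with 20.

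The feedback regulators, which are themselves induced by WNT signals in many cells and then dampen them, did not share a direction. RNF43 (ENSG00000108375, chromosome 17, 58352500 to 58417595, minus strand), a ubiquitin ligase that removes Frizzled receptors from the cell surface, had 231 counts in TRPV3-OE and 455 in parental cells. Its log2 ratio of −1.03 (−1.27 to −0.80) lay just past 2-fold, but was −0.98 with scaling by total counts and −0.90 relative to its 50 closest genes, both short of it. ZNRF3, the related ligase, had 496 and 402 counts (0.25, 0.05 to 0.44). NKD1, which binds Dishevelled, had 76 counts in TRPV3-OE and 10 in parental cells, a log2 ratio of 2.87 (1.91 to 3.99). That is 7.31-fold higher, but its sum of 86 counts is under the minimum. AXIN2, a scaffold of the beta-catenin destruction complex and a widely used readout of canonical WNT activity, had 1 count in TRPV3-OE and 17 in parental cells (−4.14, −9.53 to −1.47). Its sum of 18 counts is far under the minimum, so AXIN2 was not measured and WNT activity is not read from it. In the gene models 25.2% of the exon bases of AXIN2 overlap another gene on the same strand, where the default of the counting tool leaves reads out, and NKD2 had no count.

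Of the TCF/LEF factors, which carry beta-catenin on DNA, all 4 were measured. TCF7L1 was the one past 2-fold (25% lower, beside 5.35% of all measured genes). TCF7L1 (ENSG00000152284, chromosome 2, 85133410 to 85310388, plus strand), the family member that acts mainly as a repressor, had 74 counts in TRPV3-OE and 720 in parental cells. Its level was 4.16 CPM (3.26 to 5.22) in TRPV3-OE and 42.0 CPM (39.0 to 45.2) in parental cells, a 10.1-fold lower level with a log2 ratio of −3.34 (−3.70 to −2.99). TCF7 had 635 and 396 counts (0.63, 0.44 to 0.81), TCF7L2 had 628 and 503 (0.26, 0.09 to 0.44), and LEF1 had 54 and 53 (−0.03, −0.60 to 0.55). Relative to their 50 closest genes TCF7L2 stood at 0.01 and LEF1 at 0.63, and TCF7L1 at −3.26. By length-scaled level TCF7L1 made up 9.15% of the 4 genes in TRPV3-OE and 56.8% in parental cells, where it came first. TCF7L2 made up 50.9% in TRPV3-OE and 26.0% in parental cells, and TCF7 34.5% and 13.7%.

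Some members that lie side by side had unlike counts, although in no pair given here were both members measured. WNT9A and WNT3A are neighbours on chromosome 1, with 59153 bases between them. WNT9A was lower in TRPV3-OE, with 46 counts against 157 in parental cells, while WNT3A had 34 counts in TRPV3-OE and 16 in parental cells. WNT6 lies 6130 bases from WNT10A and had no count in either library, and WNT9B, which lies 47 bases from WNT3 on the other strand, had none. WNT1, which had none either, lies 6690 bases from WNT10B, with 4 counts in TRPV3-OE and 11 in parental cells. Relative to the 50 closest measured genes, WNT7B and WNT10A were still past 2-fold, as were 6 of the 8 lower members, with DKK3 and RNF43 as the exceptions.

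Genes elsewhere in the pathway were taken from 7 lists with 98 different genes, of which 71 were measured, 7 at least 2-fold higher (9.86%, beside 5.31% of all measured genes) and 6 lower (8.45%, beside 5.35%). As for the members, these counts of higher and lower genes are a description only. The lists were chosen with earlier results of these data known. The median log2 ratio of the 71 was −0.04, close to that of all measured genes. Of 22 genes of Dishevelled, the destruction complex and beta-catenin 20 were measured and 0 passed 2-fold (median −0.03). Over all measured genes 5.31% were higher and 5.35% lower. With 20 genes, 0 is near those shares and does not set the list apart. The largest differences were those of BTRC, which recognises marked beta-catenin (log2 ratio 0.70), the scaffold AXIN1 (−0.67, and −0.01 relative to its 50 closest genes), AMER1 (−0.66, and −0.04 relative to its 50 closest genes) and beta-catenin itself. CTNNB1, the gene of beta-catenin, had 7088 counts in TRPV3-OE and 9396 in parental cells (−0.46, −0.51 to −0.42).

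Of 15 nuclear partners of beta-catenin 14 were measured and none passed 2-fold (median −0.04), beside 5.31% higher and 5.35% lower over all measured genes. The co-repressor gene TLE3 came nearest, with 1267 counts in TRPV3-OE and 626 in parental cells (0.96, 0.82 to 1.10, and 1.01, past 2-fold, with scaling by total counts). TLE2, also a co-repressor, had a log2 ratio of −0.74, the beta-catenin antagonist CBY1 0.71 and the acetyltransferase gene CREBBP −0.46 (0.10, the other direction, relative to its 50 closest genes).

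Secretion and receptor turnover genes held some of the called genes. WLS, the carrier that brings WNT proteins to the cell surface, had 2835 counts in TRPV3-OE and 1300 in parental cells (1.07, 0.97 to 1.16, and 0.78 relative to its 50 closest genes). PORCN, which attaches the lipid to WNT proteins, had 276 and 622 counts (−1.23, −1.44 to −1.02, and −0.43 relative to its neighbours on chromosome X). The protease gene TRABD2A, which cleaves WNT proteins, had a log2 ratio of 0.37. The secretion list thus had 1 higher and 1 lower of 3 measured among 6 (median 0.37). That is 33.3% each, beside 5.31% higher and 5.35% lower over all measured genes. LGR4, a receptor for R-spondins, which protect Frizzled receptors from RNF43 and ZNRF3, had 455 and 1181 counts (−1.43, −1.59 to −1.28, and −0.74 relative to its neighbours). LGR6 had 75 and 74 counts, and of the R-spondins themselves RSPO2 had 1 count in TRPV3-OE and RSPO1, RSPO3 and RSPO4 had none. This list had 0 higher and 1 lower (50%, beside the same 5.35%) of 2 measured among 7 (median −0.73). Among 10 other extracellular antagonists 4 were measured and 0 called (median −0.10), beside 5.31% higher and 5.35% lower over all measured genes. They were KREMEN1, a partner of DKK1, at −0.68, IGFBP4 at 0.53, KREMEN2 at −0.42 (−0.96 to 0.12) and TPBG at 0.22. Relative to its 50 closest genes TPBG turned direction, to −0.05. KREMEN2, whose interval spanned no difference, stood at 0.18 relative to its own 50 closest genes.

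Of 23 other genes described as beta-catenin targets 14 were measured, with 2 higher (14.3%, beside 5.31% of all measured genes) and 3 lower (21.4%, beside 5.35%) and a median of −0.05. The transcription factor gene TBX3 had 327 counts in TRPV3-OE and 1228 in parental cells (−1.97, −2.15 to −1.79), and CD44, an adhesion receptor, had 2256 and 6020 (−1.47, −1.54 to −1.40, and −0.75 relative to its neighbours). PPARD, a nuclear receptor gene named after its value was seen, was the third lower gene (−1.15). EPHB3, an ephrin receptor gene, had 78 and 23 counts (1.71, 1.02 to 2.44) and BMP4, a ligand gene, 272 and 85 (1.62, 1.27 to 1.99). MYC and CCND1, also named after their values were seen, had log2 ratios of −0.38 and −0.20.

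Of the planar polarity and other non-canonical genes 14 of 18 were measured, with 4 higher (28.6%, beside 5.31% of all measured genes) and 1 lower (7.14%, beside 5.35%) and a median of 0.21. VANGL2, a core membrane protein of planar polarity, had 412 counts in TRPV3-OE and 128 in parental cells (1.63, 1.34 to 1.93). CELSR2, a polarity cadherin, had 2844 and 1152 (1.25, 1.15 to 1.35), but the 50 genes closest to it on chromosome 1 had a median of 0.71, and CELSR2 stood at 0.54 relative to them. FUZ, a polarity effector of cilia, had 505 and 202 counts (1.27, 1.03 to 1.51), and PRICKLE2, named after its value was seen, had 120 and 51 (1.18, 0.69 to 1.68). PRICKLE1, its paralogue, was lower, with 229 and 794 counts (−1.85, −2.07 to −1.64). The epithelial marker list, which does not share a gene with these, had 3 of 10 members higher in the same libraries (30%, beside 5.31%). Its part in these values was not tested.

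**Figure D4:**
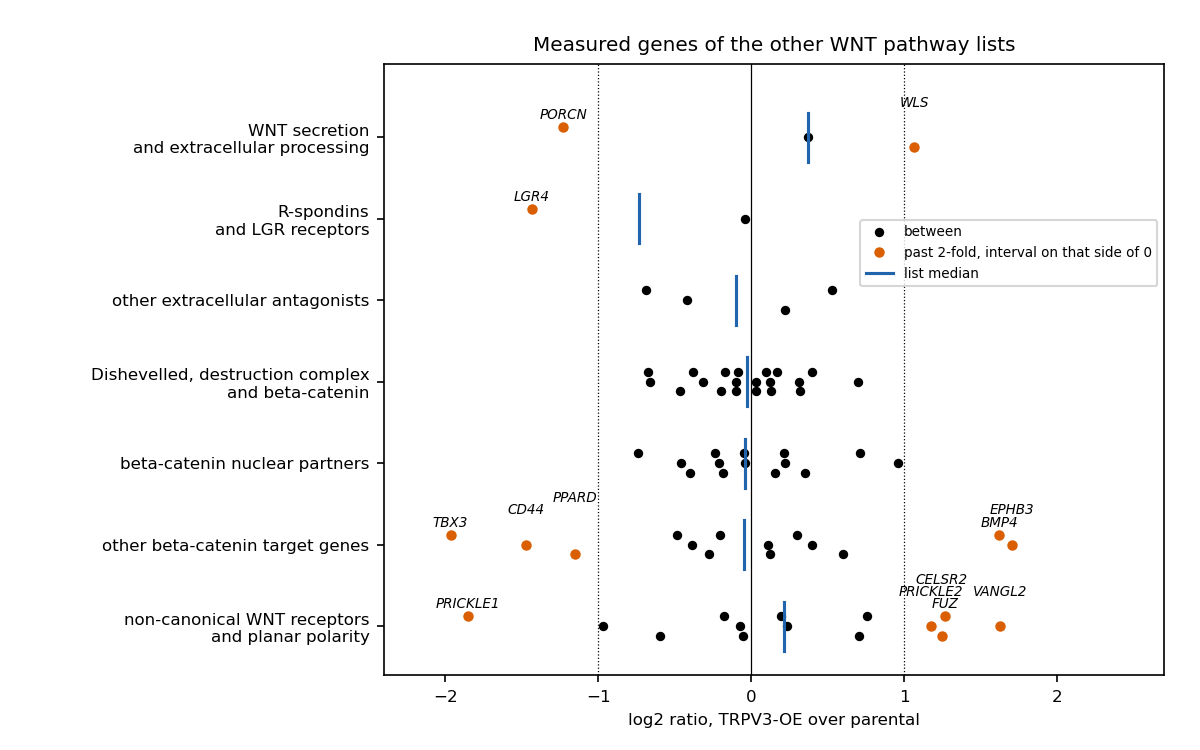
Log2 ratio of TRPV3-OE over parental for the measured genes of 7 other WNT pathway lists, 1 point per gene, with the list median as a blue bar and dotted lines at 2-fold; called genes are named. The lists of the destruction complex and of nuclear partners lie wholly between the lines, and the polarity list holds 4 points to the right and 1 to the left.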

How the data were processed

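The deposited values are raw read counts per gene, made by the authors with featureCounts 1.5.0-p3 at strand setting 2 (reverse), on Ensembl release 87 models of GRCh38.p7, per the file headers. STAR and DESeq2 are named without version per the submitters' processing notes. No option for multi-mapped reads or overlapping genes is shown, and the default of the tool leaves such reads out. Across the members at most 2.67% of 50-base stretches recur in transcripts of another locus (FZD2, in GENCODE 29 transcripts), and exon overlap on the same strand affects AXIN2 (25.2%) and RNF43 (1.91%).

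Counts were scaled with TMM factors (1.02 for TRPV3-OE, 0.981 for parental) from edgeR 4.0.16 in R 4.3.3. No model was fitted with 1 library per group. Intervals are exact Poisson for levels and Clopper-Pearson for ratios, and the calculation was tested on simulated data. Symbols were matched for 56948 IDs. For a ratio a count of 0 was set to 0.5, and no fold is given where both libraries had 3 counts or fewer. Genes were named by a rule: every member with a count, and up to 4 measured genes of each other list by size of the log2 ratio. Exceptions on the other lists included PPARD, PRICKLE2, MYC, CCND1, SOSTDC1, TNFRSF19 and the R-spondin genes. Members and lists were chosen with earlier results of these data known. Alternatives were other scalings (DESeq2 1.42.0 size factors, total counts, upper quartile), other minimums and fold limits, a prior count of 5 and ratios relative to the median over the 50 measured genes closest on the chromosome. Python 3.11.15 with scipy 1.17.1 and pandas 2.3.3 was used. A single count equals 0.0562 CPM in TRPV3-OE and 0.0584 CPM in parental cells. A marker of the immune cell list is not named here.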

Additional observations from a re-analysis of the deposited data

How the results depend on the processing

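No paired analysis was possible because there is 1 library a side, and no replicate could be left out. The members past 2-fold, 2 higher and 8 lower, numbered 4 and 8 at a floor of 20 summed counts (NKD1 and WNT3A added), 4 and 9 at a floor of 1, and 1 and 4 at a floor of 500. A 1.5-fold limit gave 4 higher with 10 lower, and a 4-fold limit 0 with 3. More or fewer genes qualify by construction. Under total-count, DESeq2 or upper-quartile scaling there were 2 and 7, without RNF43, and relative to the 50 closest genes 2 and 6, without DKK3 and RNF43. The median of −0.21 was −0.029 at a floor of 20 and turned to 0.19 at a floor of 500, where 14 members are left. The ratios of the 24 members stayed within their intervals under the other scalings and the prior count of 5, and 8 moved out relative to the 50 closest genes.

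The same scalings and subtraction were tried on 27 genes of the other lists after the data were seen. CTNNB1 moved out of its interval under total-count (−0.409) and upper-quartile scaling (−0.405). Relative to the 50 closest genes 12 moved out of their intervals, and WLS, CELSR2, PORCN, LGR4 and CD44 came short of 2-fold. TLE3 passed 2-fold under the 4 alternatives tried for it, at 1.004 to 1.02. A gene with 100 counts in even shares has a log2 interval 1.19 wide, so small differences were not detectable in members near the minimum.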

Other observations

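Non-coding genes named after the members gave few or no counts. FZD10-AS1 had 6 counts in TRPV3-OE and 1 in parental cells, LEF1-AS1 and FZD4-DT had 1 and 0, and WNT5A-AS1, TCF7L1-IT1, ZNRF3-IT1 and ZNRF3-AS1 had 0 in both libraries. No difference was detectable at this depth. SOSTDC1, an extracellular antagonist of WNT and BMP signals, is no member and was picked out after its value was seen. It had 25 counts in TRPV3-OE and 2 in parental cells. TNFRSF19, listed as a beta-catenin target and also named outside the rule, had 6 and 54. Both sums are under the minimum, as are those of other listed genes not named here.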
